A study of Homo sapiens with 60 samples.

Results

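The genes described here carry out and control the synthesis of cholesterol and of long-chain fatty acids in HEK293A cells, an adherent derivative of the HEK293 human embryonic kidney line. They are 32 genes taken by symbol from 58395 gene rows, and all 32 were found: 5 regulators of the sterol regulatory element-binding proteins (SREBPs), 19 genes of the cholesterol path and 8 enzymes of fatty acid synthesis, elongation and desaturation. All 60 libraries came from cells in which CRISPR/Cas9 had been directed at TDP1, and they represent 3 clones, C6, F7 and G6. Cells of every clone received no treatment, 0.1% DMSO, 100 nM topotecan in 0.1% DMSO, 5 μM OL9-119 in 0.1% DMSO, or topotecan with OL9-119 at the same doses (the combination, for which the labels name no DMSO). Exposure lasted 5 to 5.5 hours in medium with 10% fetal bovine serum. Each of the 15 groups had 4 biological replicates of poly(A) RNA. Topotecan traps topoisomerase I on DNA, TDP1 removes such trapped protein from DNA ends, and OL9-119 is known here by its code name alone. Every library carries the knockout, so the comparisons concern treatments and clones within knockout cells, and unedited cells are not analysed here. Each clone descends from edited cells of its own, so a difference between clones cannot be told apart from clonal variation.

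Cells match cholesterol synthesis to supply through a sensor in the endoplasmic reticulum. When membrane sterol is low, SCAP carries the precursors made from SREBF1 and SREBF2 to the Golgi, where they are cut to release transcription factors. When sterol is high, the INSIG proteins hold SCAP back. SREBF2 products act mainly on the cholesterol path and SREBF1 products mainly on fatty acid genes, and INSIG1 is itself a target, which closes a feedback loop. Serum in the medium supplies lipoprotein cholesterol and so limits how far the path is called on.

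Promoter sequences, 250 bases before to 50 after the annotated start, were found in the RefSeq table (GRCh38.p14) for 28 of the 32 genes. Those of SREBF2, INSIG1 and STARD4 are shown because the first differed most between clones among the regulators and the other 2 changed with topotecan. Capitals mark the SREBP site TCACNCCAC and the NF-Y site CCAAT on either strand.
SREBF2 (chr22:41832855-41833154, plus strand): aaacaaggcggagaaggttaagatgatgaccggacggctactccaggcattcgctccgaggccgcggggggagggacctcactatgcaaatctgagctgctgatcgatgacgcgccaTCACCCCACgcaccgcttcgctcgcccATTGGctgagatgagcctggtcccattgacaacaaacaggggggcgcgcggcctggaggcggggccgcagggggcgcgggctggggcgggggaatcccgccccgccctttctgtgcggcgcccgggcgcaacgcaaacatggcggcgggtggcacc
INSIG1 (chr7:155297628-155297927, plus strand): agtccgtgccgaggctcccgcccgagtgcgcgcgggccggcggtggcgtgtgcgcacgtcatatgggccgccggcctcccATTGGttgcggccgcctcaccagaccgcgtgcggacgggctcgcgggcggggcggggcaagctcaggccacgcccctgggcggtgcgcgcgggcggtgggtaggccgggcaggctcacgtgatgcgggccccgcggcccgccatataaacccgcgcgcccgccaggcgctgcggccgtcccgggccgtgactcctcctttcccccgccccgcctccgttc
STARD4 (chr5:111512486-111512785, minus strand): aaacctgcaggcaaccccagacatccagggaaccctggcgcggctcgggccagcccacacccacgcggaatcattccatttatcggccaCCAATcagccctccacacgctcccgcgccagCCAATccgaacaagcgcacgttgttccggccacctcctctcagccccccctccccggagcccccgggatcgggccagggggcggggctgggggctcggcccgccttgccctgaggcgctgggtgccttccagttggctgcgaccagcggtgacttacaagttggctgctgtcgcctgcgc

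In SREBF2 the SREBP match began at position -133 and the NF-Y match at -106 relative to the start, with no base in common. SREBF2 was the only one of the 28 genes with that SREBP match in this window (3.57%, against 1.39% of 27303 genes). Only these exact letters were searched, so a site that departs from them would be missed. The NF-Y letters were found in 21 of the 28 (75%, against 39.7% of all genes), and the Sp1 letters GGGCGG in 27 of the 28 (96.4%, against 48.3%). The ATF4/CHOP composite TGATGNAA was found in none of the 28 (4.46% of all genes). Genes can have several listed starts, and a match in any window was counted. The 27303 genes are all those with a listed promoter, whether expressed here or not, while the 28 are all expressed. The shares are therefore not of like sets, and no test was made.

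Libraries held 4.62 to 20.9 M counts (median 11.4 M). Thinned to 4.5 M counts, 15 libraries showed 17456 to 19871 detected genes and the other 45 showed 20714 to 23778. The former are called low-detection libraries. Of them 11 were C6, 4 were G6 and none was F7, and 3 of the 4 C6 libraries in DMSO were among them. TDP1 counts ran from 17.8 to 42.3 CPM (reads of a gene relative to the TMM-scaled library total) over the 60 libraries. Counts over the whole gene do not show a small coding deletion, so they check no label. The epithelial keratin KRT8 stood at a median of 699 CPM and KRT18 at 295. The renal developmental factor LHX1 stood at 10.9 CPM and PAX2 at 2.87. Of the other genes listed for HEK293 cells, VIM had a median of 460 CPM and NEFM of 13.2. The hepatocyte list of 5 genes, which would mark a lipid-exporting cell, summed to at most 1.81 CPM in any library, and the adipocyte list of 5 genes to at most 2.66 CPM. Where a level differs, fewer cells with the transcript and less RNA per cell cannot be told apart.

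All 32 genes passed the expression filter. Together they took 0.224 to 0.269% of a library's counts. Per kilobase of exon, the desaturase SCD had the highest mean level (46.8 CPM per kb), followed by the cytosolic acetyl-CoA supplier ACLY (46.2) and the HMG-CoA synthase HMGCS1 (44.1). On the same scale the sterol isomerase EBP stood at 36.4, the fatty acid synthase FASN at 27.0, SREBF2 at 10.9 and SREBF1 at 1.92. The lowest was CYP51A1, the lanosterol demethylase, at 0.651 CPM per kb (0.302 to 5.70 CPM over libraries). Its exons share 79.4% of their bases with AC000120.2, annotated on the same strand, so its counts are uncertain.

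Topotecan lowered ACACA and INSIG1 and raised SREBF1, STARD4 and ACAT2. These 5 of 32 genes (15.6%) compare with 15.3% of the 18985 genes tested (edgeR quasi-likelihood test, Benjamini-Hochberg adjusted p below 0.05). By direction, 3 rose against a background of 5.98% and 2 fell against 9.33%; the share called was near that of all genes. The median log2 change of the 32 was 0.11, against 0.02 over all genes. In hg38 (GENCODE 29) the 5 genes lie on different chromosomes or far apart: INSIG1 at chr7:155297776-155310235, SREBF1 at chr17:17810399-17837002, STARD4 at chr5:111496033-111512590, ACAT2 at chr6:159760328-159779055 and ACACA at chr17:37084988-37406818.

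**Figure D1:**
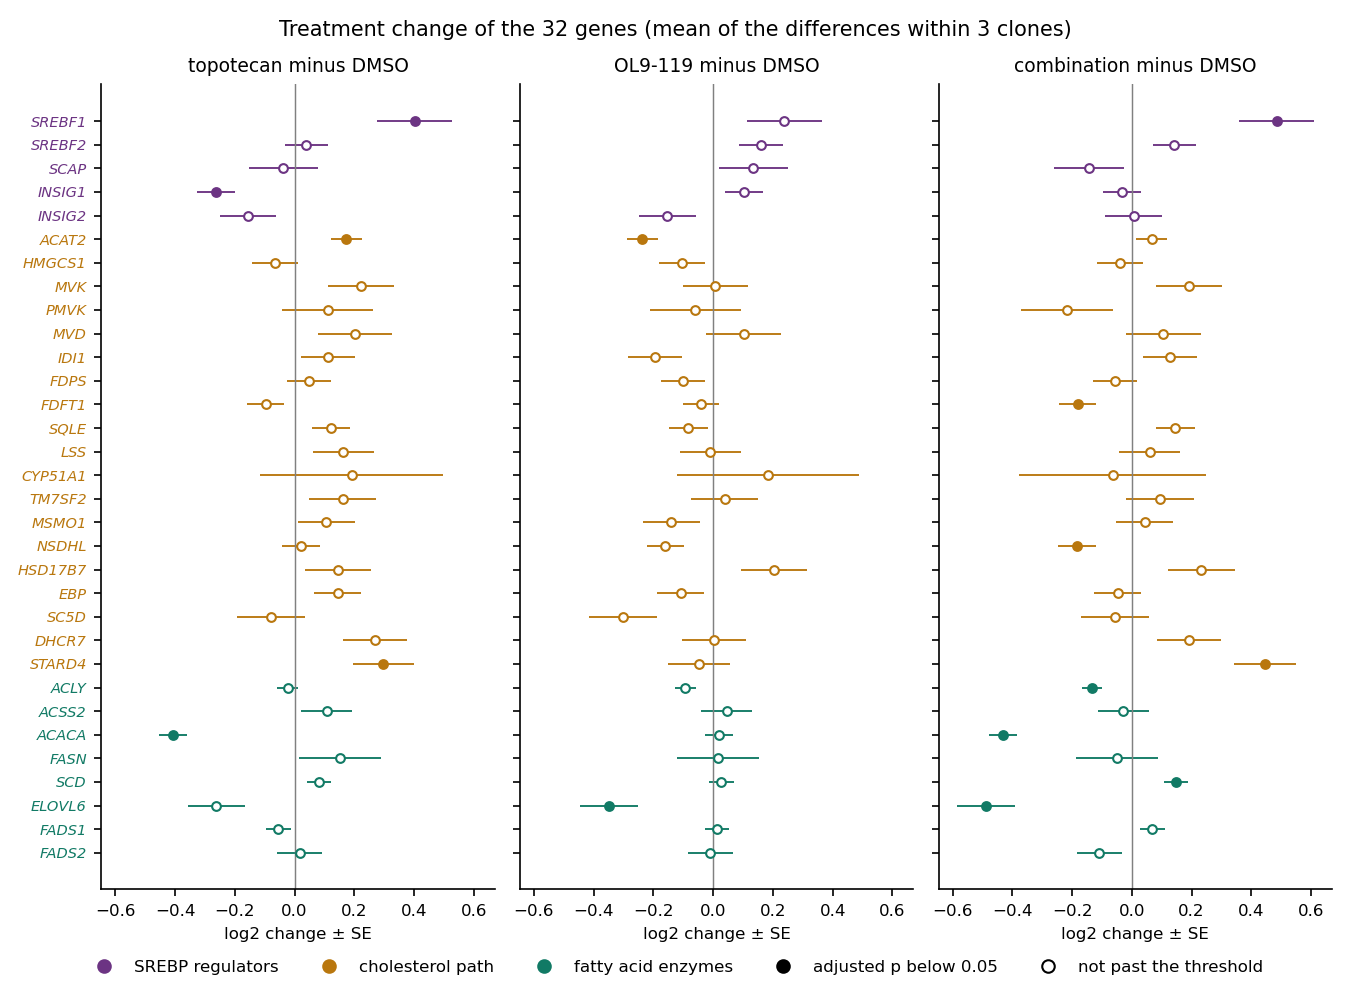
Log2 change (x axis, ± SE) of each of the 32 genes (y axis) against DMSO in 3 panels (topotecan, OL9-119, the combination), coloured by gene class. Filled points passed the threshold: 5 genes with topotecan, 2 with OL9-119 and 8 with the combination.

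Among the regulators, INSIG1, the sterol-responsive anchor of SCAP, ran from 40.8 to 67.4 CPM in DMSO (median 52.0, n = 12) and from 35.9 to 49.9 CPM in topotecan (median 42.1, n = 12). The log2 change was -0.26 ± 0.06 (SE), with an adjusted p of 0.00193 (edgeR). The G6 libraries did not overlap: 67.4, 57.2, 53.5 and 53.6 CPM in DMSO against 44.3, 44.8, 49.9 and 45.5 CPM in topotecan. In F7 the 4 topotecan libraries (39.5 to 42.1 CPM) lay inside the DMSO range (40.8 to 46.1 CPM) or just below it. Without the low-detection libraries the INSIG1 change was -0.14, with an adjusted p of 0.158 (edgeR), so the call did not hold there.

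SREBF1, the precursor gene with the stronger link to fatty acid synthesis, ran from 7.79 to 16.8 CPM in DMSO (median 13.6) and from 12.9 to 19.7 CPM in topotecan (median 16.5). The change was 0.40 ± 0.12 (adjusted p = 0.0182, edgeR), and the mean was higher in each of the 3 clones. By clone it was 0.65 (C6), 0.12 (F7) and 0.44 (G6), and the C6 libraries did not overlap. The low-detection libraries held the lowest SREBF1 values in DMSO (7.79, 9.28 and 10.2 CPM), and without them the change was 0.26, with an adjusted p of 0.101 (edgeR). SREBF1 also did not pass without replicate 2 (0.35), replicate 3 (0.44), clone C6 (0.29) or clone G6 (0.39). SREBF2, SCAP and INSIG2 did not pass, with changes of 0.04, -0.04 and -0.16.

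In the cholesterol path, 2 of 19 genes rose with topotecan, none fell, and the median change was 0.14. STARD4, a carrier of cholesterol between membranes, had a median of 36.1 CPM in DMSO (24.9 to 53.0) and 44.7 CPM in topotecan (31.4 to 81.8). Its change was 0.30 ± 0.10 (adjusted p = 0.0394, edgeR), positive in all 3 clones at 0.30, 0.24 and 0.35 in C6, F7 and G6. The ranges overlapped in every clone, in G6 by a small margin (28.8 to 39.7 against 39 to 51.3 CPM). With any one replicate number or any one clone left out, STARD4 no longer passed (adjusted p 0.0505 to 0.162, edgeR), while its change lay between 0.24 and 0.34.

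ACAT2, the cytosolic acetoacetyl-CoA thiolase that starts the path, rose by 0.17 ± 0.05 (adjusted p = 0.0135, edgeR) from a median of 62.5 CPM (54.8 to 66.8) to 68.3 CPM (58.6 to 79.8), and the groups did not overlap in G6. ACAT2 did not pass without the filter on low counts, replicate 3, replicate 4, clone F7 or clone G6. The other 17 genes of the path did not pass. Those with the next largest changes were DHCR7, the last reductase before cholesterol (0.27 ± 0.11, adjusted p = 0.0864), the mevalonate kinase MVK (0.22 ± 0.11, 0.189) and the decarboxylase MVD (0.20 ± 0.12, 0.325), all by edgeR. HMGCS1 was at -0.06 ± 0.08, with a 95% interval of -0.22 to 0.09.

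ACACA, the acetyl-CoA carboxylase that makes malonyl-CoA, had the smallest adjusted p of the 32 genes with topotecan. In F7 the DMSO libraries read 104.3, 103.8, 116 and 102.6 CPM and the topotecan libraries 75.2, 83.3, 79.6 and 77.8 CPM. In G6 they read 90.4, 89.6, 95.1 and 84.2 CPM in DMSO and 67.3, 63.8, 64.1 and 56.6 CPM in topotecan. In C6 they read 115, 142, 134 and 139 CPM in DMSO and 106, 106, 112 and 112 CPM in topotecan. No library of one treatment reached the range of the other in any clone. The fitted change was -0.41 ± 0.05 (adjusted p = 6.4e-10, edgeR), a topotecan level of 0.754 times DMSO.

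**Figure D2:**
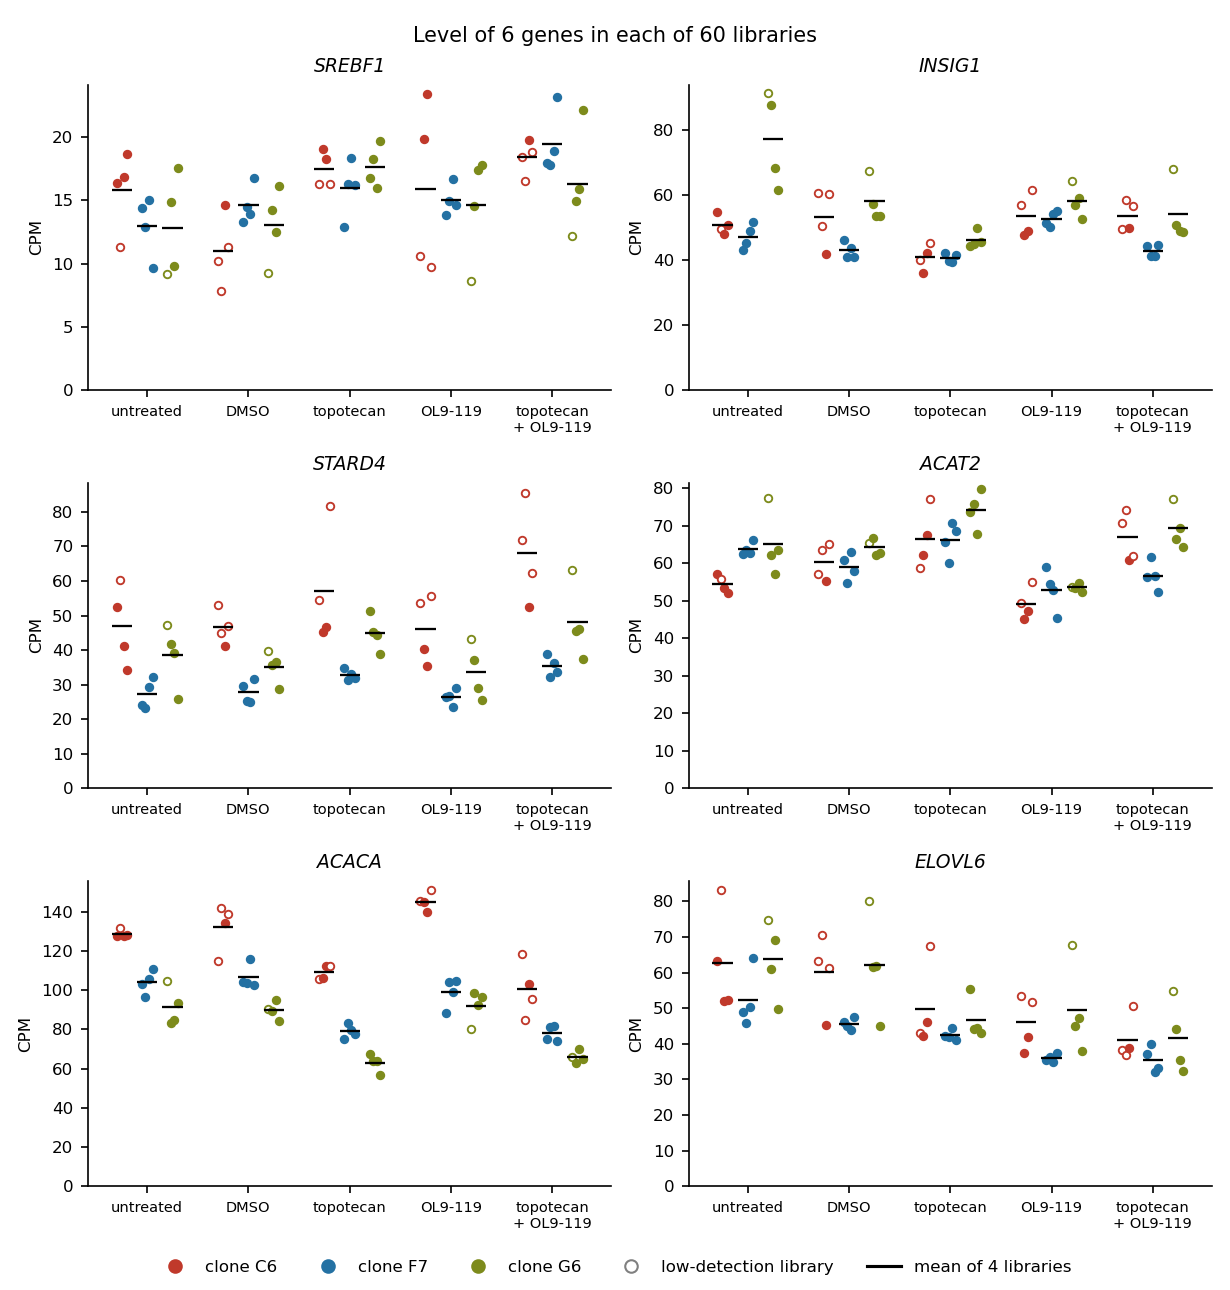
CPM (y axis, from 0) of 6 genes in each of the 60 libraries by treatment (x axis) and clone (colour), with open circles for the 15 low-detection libraries and bars for the mean of 4 libraries. ACACA with topotecan lies below DMSO in every clone (F7: 75.2 to 83.3 against 102.6 to 116 CPM), while INSIG1 in F7 shows little shift with topotecan (40.8 to 46.1 CPM in DMSO, 39.5 to 42.1 CPM in topotecan).

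None of the other 7 fatty acid enzymes passed with topotecan. The elongase ELOVL6 came closest, at -0.26 ± 0.10 (adjusted p = 0.0559, edgeR). FASN was at 0.15 ± 0.14, SCD at 0.08 ± 0.04 and ACLY at -0.02 ± 0.03.

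ACACA spans 322 kb and ELOVL6 153 kb of the genome, and the other 30 genes span less than 100 kb. Among protein-coding genes over 200 kb, the median topotecan change was -0.36 and 56.7% fell. ACACA ranked 525 of those 1176 genes from the lowest. Among the 1807 genes of 100 to 200 kb the median was -0.16, and among the 4071 genes of 10 to 30 kb, which hold 20 of the 32 genes, it was 0.09. With OL9-119 the median of genes over 200 kb was 0.03, and ACACA was at 0.02 ± 0.05. The part of gene length in the ACACA change was not tested.

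**Figure D3:**
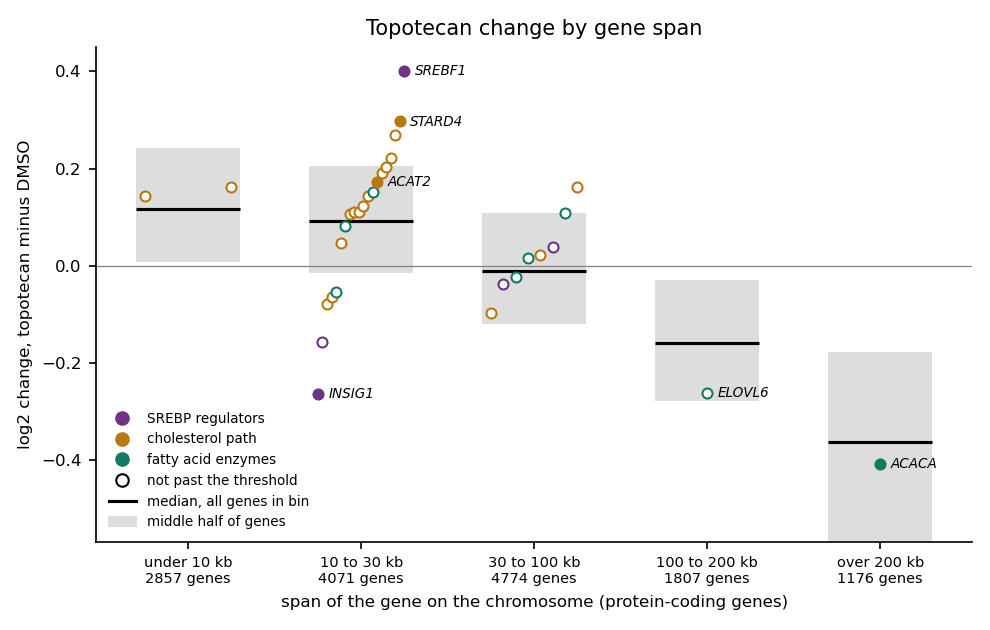
Log2 change with topotecan (y axis) for the 32 genes, placed by the genomic span of the gene (x axis, with the number of protein-coding genes in each class). Black lines are the medians and grey boxes the interquartile range of all genes of that span. ACACA (-0.41) lies near the median of its class (-0.36).

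OL9-119 lowered ELOVL6 and ACAT2 and raised none of the 32 genes. That is 2 of 32 (6.25%) against 9.42% of all genes tested; by direction, 4.97% of all genes fell. The medians were -0.01 for the 32 genes and 0.01 for all genes, and 15 of the 32 lay above 0. ELOVL6, which extends palmitate to stearate, ran from 43.9 to 80.0 CPM in DMSO (median 54.4) and from 34.8 to 67.7 CPM with OL9-119 (median 40.0). The log2 change was -0.35 ± 0.10 (adjusted p = 0.0113, edgeR), with close values in the clones: -0.38 in C6, -0.34 in F7 and -0.33 in G6. In F7 the groups did not overlap (46, 45.1, 43.9 and 47.5 CPM against 35.3, 36.3, 34.8 and 37.4 CPM). ELOVL6 did not pass without replicate 2, replicate 3, clone C6 or clone F7, and its change over all alternatives ran from -0.37 to -0.28.

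ACAT2 fell with OL9-119 from a median of 62.5 CPM (54.8 to 66.8) to 53.2 CPM (45.1 to 59.1), a log2 change of -0.24 ± 0.05 (adjusted p = 0.000936, edgeR). C6 and G6 libraries did not overlap, and F7 libraries did (54.8 to 62.9 against 45.5 to 59.1 CPM). A total of 1141 exon bases of ACAT2 (26.5%) lie opposite exons of SOD2, the mitochondrial superoxide dismutase. SOD2 moved the same way as ACAT2: 0.25 ± 0.05 with topotecan (adjusted p = 0.00028) and -0.16 ± 0.05 with OL9-119 (0.0365), both by edgeR. Exons of TCP1, a chaperonin subunit gene, lie opposite 397 bases of ACAT2 (9.2%), and TCP1 had a change of 0.03 ± 0.04 with topotecan, not past the threshold, and of -0.20 ± 0.04 with OL9-119 (adjusted p = 0.000207, edgeR). Within groups the log2 levels of ACAT2 and SOD2 had a Pearson correlation of 0.444 over 60 libraries. The libraries were made with a strand-preserving kit, but no source used here gives the strand setting of the counting, and reads of this overlap may be shared.

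The sterol desaturase SC5D had a change of -0.30 ± 0.11 with OL9-119 and did not pass (adjusted p = 0.0895, edgeR). The regulators SREBF1, SREBF2, SCAP and INSIG1 had changes of 0.24, 0.16, 0.13 and 0.10, none of which passed. In the same libraries the 6 listed genes of the ATF4 stress response all rose with OL9-119, from 0.49 for the transcription factor gene ATF4 to 3.01 for the glutathione-degrading CHAC1, against a background of 4.45% higher.

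The combination lowered ELOVL6, ACACA, NSDHL, FDFT1 and ACLY and raised SREBF1, STARD4 and SCD. These 8 of 32 genes (25%) compare with 21.2% of all genes. ELOVL6 reached its lowest level here, 32 to 54.8 CPM (median 37.7) against 43.9 to 80.0 CPM in DMSO. Its change was -0.49 ± 0.10 (adjusted p = 8.55e-05, edgeR). The ACACA change was -0.43 ± 0.05 (adjusted p = 1.04e-10, edgeR), close to its change with topotecan alone.

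SREBF1 rose by 0.48 ± 0.13 (adjusted p = 0.00265) and STARD4 by 0.45 ± 0.10 (0.000766) with the combination, both by edgeR and both with a higher mean in 3 of 3 clones. SREBF1 did not pass without clone C6. The F7 libraries, none of low detection, did not overlap for either gene. SREBF1 there read 13.3, 14.5, 13.9 and 16.8 CPM in DMSO and 17.9, 17.8, 18.9 and 23.1 CPM in the combination. STARD4 read 29.6, 25.3, 24.9 and 31.5 CPM in DMSO and 38.8, 32.1, 36.4 and 33.7 CPM in the combination.

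The remaining changes with the combination were small. NSDHL, which removes sterol methyl groups, was at -0.18 ± 0.06, and the squalene synthase FDFT1 was at -0.18 ± 0.06. ACLY was at -0.13 ± 0.03 and SCD at 0.15 ± 0.04. Adjusted p lay between 0.00276 and 0.0277 (edgeR). Without the low-detection libraries NSDHL was at -0.06, FDFT1 at -0.12 and ACLY at -0.13, and none of these passed. Over 13 alternative fits the call was lost in 8 for NSDHL, 6 for FDFT1, 5 for ACLY and 3 for SCD. SCD did not pass without the expression filter, replicate 1 or clone C6.

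The combination was also set against each compound alone, in comparisons that share libraries with those above. Against topotecan it raised INSIG1 (0.23 ± 0.06, adjusted p = 0.0183) and lowered NSDHL (-0.21 ± 0.06, 0.033) and ACLY (-0.11 ± 0.03, 0.0391), by edgeR. That is 3 of 32 genes (9.38%) against 6.71% of all genes. INSIG1 stood at 41.3 to 67.9 CPM in the combination (median 49.3) and 35.9 to 49.9 CPM in topotecan (median 42.1). For NSDHL the ranges were 35.9 to 46.8 CPM (median 42.8) and 44 to 53.7 CPM (median 48.7), with no overlap in C6 and G6. Without the low-detection libraries none of the 3 passed (INSIG1 0.17, NSDHL -0.15, ACLY -0.09). Over 13 alternative fits the call was lost in 6 for INSIG1, 9 for NSDHL and 10 for ACLY.

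Against OL9-119 alone, the combination raised STARD4, IDI1, ACAT2, SQLE and SCD and lowered ACACA, 6 of 32 genes (18.8%) against 12.7%. STARD4 was 0.49 ± 0.10 higher (adjusted p = 0.000294) and ACAT2 0.30 ± 0.05 higher (1e-05). The isomerase IDI1 (0.32 ± 0.09, adjusted p = 0.0092) and the squalene epoxidase SQLE (0.23 ± 0.06, 0.00966) had passed in neither compound against DMSO. All 4 values are from edgeR, and all 4 genes had a higher mean in each clone. IDI1 did not pass without replicate 2 (0.26) or clone G6 (0.24), nor SQLE without replicate 2 (0.17), replicate 4 (0.19) or clone C6 (0.20). SCD was 0.12 higher and did not pass without the expression filter, any 1 replicate number, clone F7, clone G6 or the low-detection libraries (0.10 to 0.14). SOD2, the opposite-strand neighbour of ACAT2, was 0.37 ± 0.05 higher.

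None of the 32 genes passed for the interaction of topotecan and OL9-119, against 5 of 18985 genes (0.0263%) by edgeR. At an unadjusted p below 0.05 there was 1 member, INSIG2 (0.32 ± 0.13), and DESeq2 called none. None passed for DMSO minus untreated either, against 0.0158% of all genes, with 3 members at an unadjusted p below 0.05 (SCD, INSIG1 and NSDHL) and none called by DESeq2. A test of whether each treatment acted differently in the 3 clones called none of the 32 genes, against 0.137% of all genes for topotecan, 0.0263% for OL9-119 and 0.169% for the combination, and no member had an unadjusted p below 0.05 (edgeR).

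The largest differences among the 32 genes lay between clones. Between C6 and F7 in DMSO, 12 of 32 genes passed (37.5%, against 39.5% of all genes). Between C6 and G6, 11 passed (34.4%, against 24.4%), and between F7 and G6, 6 passed (18.8%, against 17.0%). The untreated libraries, a separate set, called 10 (against 32.6% of all genes), 13 (22.4%) and 11 (16.6%). Of the 12, 11 and 6 genes called in DMSO, 9, 11 and 5 were also called untreated. Each of them had the same sign in both sets. How many of all genes were called in both sets was not counted, so this agreement is not shown to be particular to the 32 genes.

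**Figure D4:**
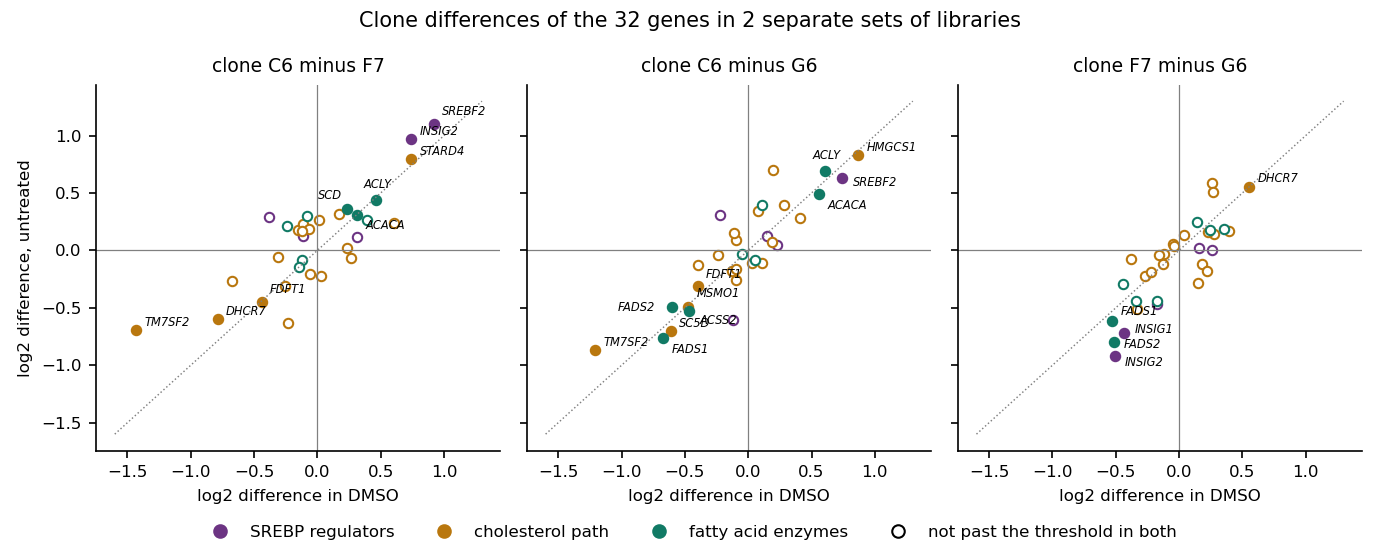
Difference between clones for the 32 genes, in DMSO (x axis, log2) and untreated (y axis, log2), with filled and named points for genes past the threshold in both. SREBF2 lies high and TM7SF2 low in C6 against both other clones.

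SREBF2, the precursor gene of the main factor for the cholesterol path, was highest in C6. The DMSO libraries read 105, 99.9, 127.2 and 107 CPM in C6, 55.1, 62.2, 59.9 and 55.6 CPM in F7, and 44.9, 61.7, 71.8 and 83.9 CPM in G6. All C6 values were above all values of the other clones. The difference was 0.92 ± 0.13 against F7 (adjusted p = 3.23e-08) and 0.74 ± 0.13 against G6 (6.56e-06), by edgeR. Without the low-detection libraries, which leaves 1 C6 library in DMSO and assumes that it varies like the other groups, the differences were 1.13 and 0.81.

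TM7SF2, a sterol reductase, went the other way. The DMSO libraries read 7.81, 10.7, 16.8 and 8.30 CPM in C6, 28.8, 30.5, 30.1 and 29.4 CPM in F7, and 17.9, 24.7, 25.6 and 33.4 CPM in G6. C6 was lower by 1.43 ± 0.20 on the log2 scale than F7 (adjusted p = 5.66e-08) and by 1.21 ± 0.20 than G6 (5.17e-06), by edgeR. In untreated libraries the C6 minus F7 difference of TM7SF2 was smaller, -0.69 ± 0.20. The 3 low-detection libraries had the lowest C6 values in DMSO (7.81 to 10.7 CPM), and without them the difference to F7 was -0.81.

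Other cholesterol genes did not share one direction between clones. HMGCS1 read 266, 330.1, 259 and 308 CPM in C6 and 211, 162, 146 and 119 CPM in G6 (difference 0.87 ± 0.13, adjusted p = 9.31e-07, edgeR). FDFT1, by contrast, was lower in C6 than in F7 (-0.44 ± 0.11) and in G6 (-0.40 ± 0.11; -0.26 and not past the threshold without the low-detection libraries), and DHCR7 was lower in C6 than in F7 (-0.79 ± 0.19). STARD4 (0.74 ± 0.18) and INSIG2 (0.74 ± 0.17) were higher in C6 than in F7. Leaving out the low-detection libraries drops 3 of the 4 C6 libraries in DMSO. These C6 minus F7 differences were then -0.63 for DHCR7, 0.57 for STARD4 and 0.61 for INSIG2. With each library's slope of log2 level on gene GC content as a covariate, they were -0.37, 0.34 and 0.45. All 3 passed with the covariate. Summed over the 19 genes, the cholesterol path stood at 1055 ± 47.3 CPM in C6, 1025 ± 13.7 in F7 and 1017 ± 56.7 in G6 (DMSO, SD, n = 4). In DMSO the libraries' sums overlapped between the clones. Untreated, the sum was 1020.4 ± 10.3 CPM in C6, 1038 ± 12.8 in F7 and 970.2 ± 29.3 in G6 (SD, n = 4). The untreated G6 libraries (927 to 991 CPM) all lay below those of C6 (1013 to 1036 CPM) and F7 (1025 to 1054 CPM), a difference that was not tested.

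Among fatty acid enzymes, ACLY was 0.46 ± 0.06 higher in C6 than in F7 and 0.61 ± 0.06 higher than in G6 (adjusted p = 7.21e-09 and 7.44e-12, edgeR), with no overlap in DMSO: 325, 281, 315 and 331 CPM in C6 against at most 239 CPM elsewhere. ACACA was also highest in C6, by 0.31 ± 0.08 over F7 and 0.56 ± 0.08 over G6. The neighbouring desaturase genes FADS1 and FADS2 were both highest in G6. FADS1 was 0.67 ± 0.07 lower in C6 and 0.53 ± 0.07 lower in F7 than in G6, and FADS2 was 0.60 ± 0.13 and 0.52 ± 0.13 lower (adjusted p from 5.79e-11 to 0.00273, edgeR). The pair share 490 exon bases on opposite strands, 4.8% of FADS1 exons.

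The regulators with feedback roles also differed. INSIG1 in untreated G6 read 91.1, 87.6, 68.3 and 61.6 CPM, all above the 4 untreated libraries of C6 (47.8 to 54.8 CPM) and of F7 (43 to 51.6 CPM). G6 was above C6 by 0.60 ± 0.11 and above F7 by 0.72 ± 0.11 (adjusted p = 2.75e-05 and 1.98e-06, edgeR). In DMSO the gap of G6 to F7 was 0.43 ± 0.11, while C6 minus G6 was -0.12 ± 0.11 and did not pass (adjusted p = 0.468, edgeR).

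Libraries of the same clone and treatment differed along a shared axis. With group means removed, 68.6% of the variance of the 32 log2 levels lay on the first component. For each library the slope of log2 level on exon GC was computed over 12350 genes. Exon GC is here the GC content of the longest annotated transcript of a gene. The slope ran from -0.392 to -0.117 log2 per 10 percentage points of GC in the low-detection libraries and from -0.131 to 0.302 in the others. Its within-group correlation with the number of detected genes was 0.908 over 60 libraries.

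Of the 32 genes, 11 had a within-group correlation with this slope below -0.5 and 16 had one above 0.5. The share of all 12350 genes past these limits was not counted, so the counts are not shown to be particular to the 32 genes. The first set held SC5D (-0.941), HMGCS1 (-0.913), STARD4 (-0.888), ELOVL6 (-0.878) and INSIG1 (-0.692), and the second FASN (0.946), PMVK (0.90), SCAP (0.890), SREBF2 (0.861) and SREBF1 (0.828). Exon GC was 34.2 to 50.2% in the first set and 41.5 to 65.3% in the second. Across the 32 genes the correlation with the slope tracked exon GC (Pearson 0.836, Spearman 0.871), as it did over all 12350 genes (Pearson 0.863). The slope was itself fitted on gene GC in these libraries, so this tracking is largely built in. ACACA (-0.0373) and HSD17B7 (0.0197) were close to 0.

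Genes of one path fell in both sets. HMGCS1 and FASN had a within-group correlation of -0.904 and HMGCS1 and SC5D one of 0.899. After the slope was removed these were -0.307 and 0.287. The mean correlation over all pairs of the 19 cholesterol genes was 0.00301, and that over all pairs of the 32 genes was 0.0153. All pairs share the same 60 libraries, so these values are descriptions.

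**Figure D5:**
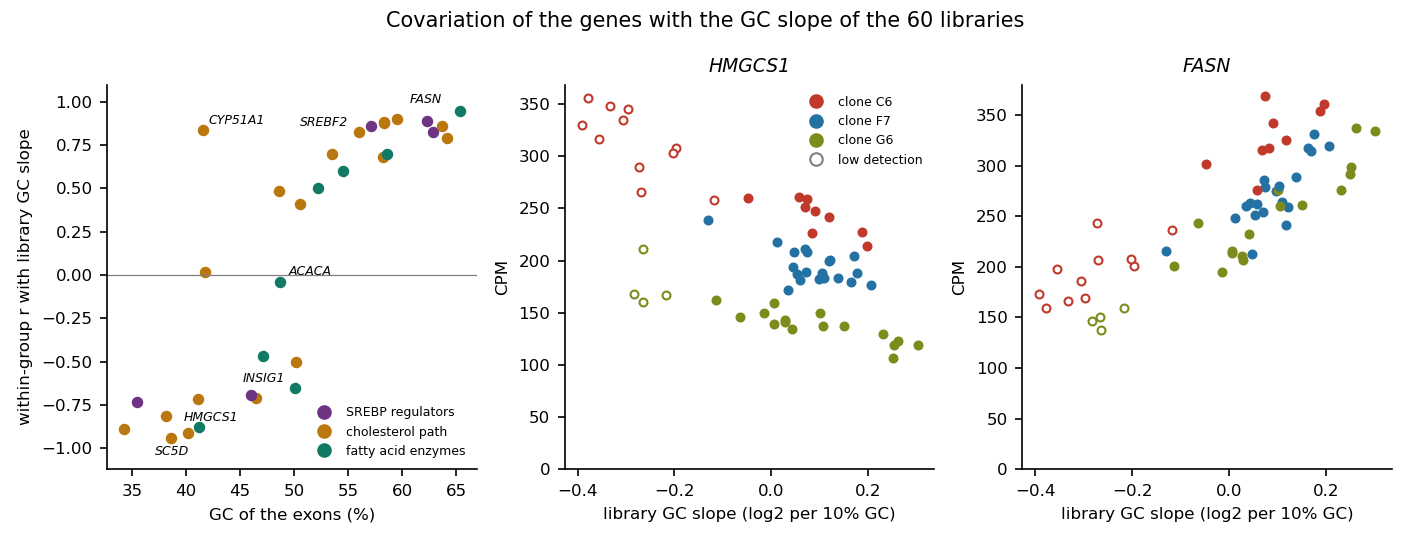
Left, within-group correlation of each of the 32 genes with the library GC slope (y axis) against exon GC of its longest transcript in percent (x axis). Centre and right, CPM of HMGCS1 and FASN (y axes, from 0) against the slope of each of 60 libraries (x axes, log2 per 10 percentage points), coloured by clone with open circles for low-detection libraries; HMGCS1 falls and FASN rises along the slope.

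The mean slope was -0.114 in C6, 0.0872 in F7 and 0.0272 in G6. By treatment it was -0.0429 in DMSO, 0.0031 untreated, 0.0019 in OL9-119, 0.0611 in topotecan and -0.0232 in the combination. The ranges overlapped (-0.392 to 0.253 in DMSO, -0.333 to 0.231 in topotecan). In F7, with no low-detection library, the means were 0.115 in DMSO and 0.134 in topotecan. These differences in slope were not tested, and the comparisons were repeated with the slope as a covariate. The members called then rose to 13 for topotecan (against 23.4% of all genes), 9 for OL9-119 (21.5%) and 16 for the combination (34.1%). They were 9 for combination minus topotecan (14.6%), 15 for combination minus OL9-119 (23.5%) and 1 for DMSO minus untreated (SCD, 0.216%). Between clones in DMSO they were 21 for C6 minus F7 (42.3%), 17 for C6 minus G6 (36.4%) and 12 for F7 minus G6 (25.8%). For topotecan, ACACA (-0.40), STARD4 (0.42), ACAT2 (0.21), INSIG1 (-0.20) and SREBF1 (0.27) remained past the threshold. The genes added were SQLE (0.19), MSMO1 (0.22), IDI1 (0.21), SC5D (0.11), DHCR7 (0.13) and SCD (0.11), which were higher, and SCAP (-0.18) and FDFT1 (-0.14), which were lower. For OL9-119 the covariate added SC5D (-0.22), FDPS (-0.15), NSDHL (-0.17), EBP (-0.14) and ACLY (-0.10), which were lower, and SREBF2 (0.13) and INSIG1 (0.13), which were higher. This covariate was chosen after the data were seen, and the slope was computed from the same libraries.

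Lists of genes around the pathway were also counted. Of 11 genes of sterol sensing and SREBP processing, topotecan lowered 3 against 9.33% of all genes, the ubiquitin ligase RNF145 (-0.18 ± 0.04), the SREBP-cutting protease MBTPS2 (-0.26 ± 0.06) and ERLIN2 (-0.16 ± 0.06). RNF145 fell with OL9-119 as well (-0.24 ± 0.04, adjusted p = 4.82e-06) and with the combination (-0.34 ± 0.04, 1.03e-10), by edgeR. The median of this list was -0.11 with topotecan and -0.02 with OL9-119.

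Of 14 genes of sterol efflux, transport and storage, topotecan lowered 2 (9.33% of all genes), the lysosomal cholesterol exporter NPC1 (-0.18 ± 0.06) and OSBP (-0.15 ± 0.04). OL9-119 raised the liver X receptor NR1H3 (0.46 ± 0.14) and lowered MYLIP (-0.23 ± 0.06), each 1 of the 14 genes, against 4.45% of all genes higher and 4.97% lower. Of 18 other fatty acid and lipid genes, topotecan lowered 4, again against 9.33%, the malic enzyme ME1 (-0.37 ± 0.10), SCD5 (-0.31 ± 0.09), HSD17B12 (-0.39 ± 0.12) and ACSL3 (-0.23 ± 0.08), and raised none. With the combination 6 of the 18 passed, all of them lower, against 21.2% of all genes in either direction. The combination lowered from 6.61% (span of 10 to 30 kb) to 54.4% (over 200 kb) of protein-coding genes. OL9-119 lowered 1 (HACD3, -0.16 ± 0.05). Of 11 genes of the isoprenoid branch, topotecan raised DHDDS (0.22 ± 0.07) and lowered PDSS2 (-0.41 ± 0.11) and NUS1 (-0.29 ± 0.10), against 5.98% of all genes higher and 9.33% lower. OL9-119 lowered ICMT (-0.18 ± 0.04). The spans of the genes in these lists were not set beside their changes. Topotecan lowered 31.6% of protein-coding genes of 100 to 200 kb and 56.7% of those over 200 kb. The part of gene length in these lists was not tested.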

How the data were processed

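Poly(A) RNA of 60 libraries was measured, and the deposited table holds whole-number read counts per gene made by the authors, without normalization. FastQC 0.11.9, STAR 2.7.8, Picard 2.26.6 and hg38 are named in the submitters' processing notes. For the counting, no source used here gives the tool, annotation or strand setting. Positions, spans and GC are from GENCODE 29.

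Genes with enough counts in the smallest group (18985) entered edgeR 4.0.16 (R 4.3.3; TMM scaling, robust quasi-likelihood F test), with a mean for each of 15 groups. Treatment changes average the within-clone differences, and p-values were adjusted by Benjamini-Hochberg over all genes tested (threshold 0.05). DESeq2 1.42.0, RLE scaling, no filter, a replicate block and left-out replicates, clones and low-detection libraries were alternatives. Low detection means under 20000 genes at 4.5 M counts. On simulated counts for topotecan minus DMSO over 18985 genes, 26% of 1.25-fold and 52% of 1.5-fold changes were recovered. The simulation gave a gene the same base rate in every clone and no GC slope, so these shares need not hold for the data. The genes named are the 32 members and those of the listed sets that passed. The members and lists were chosen with earlier results of these data known. The results of a gene that passed in these sets are not reported here, so not all that passed are named.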

Additional observations from a re-analysis of the deposited data

Results flagged for a closer look

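In 7 of 150 groups of 4 libraries, tested for the 10 most described genes, 1 library stood apart by Dixon's criterion. Chance gives about 1 in 20 groups. ELOVL6 was involved in 3 of them: C6 with topotecan, replicate 4 (67.5 CPM, others 42.1 to 46.2), C6 with the combination, replicate 4 (50.6 CPM, others 36.8 to 38.9), and G6 with topotecan, replicate 1 (55.3 CPM, others 43.1 to 44.3). INSIG1 was high in G6 with the combination, replicate 1 (67.9 CPM, others 48.5 to 50.6). That library and both C6 libraries were of low detection.

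ACLY was high in untreated G6, replicate 4 (217 CPM, others 188 to 191). ACACA was high in F7 with DMSO, replicate 3 (116 CPM, others 102.6 to 104.3). NSDHL was low in G6 with topotecan, replicate 1 (49.5 CPM, others near 53.6).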

How the results depend on the processing

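Counts of members called moved as follows. With the GC slope as covariate, chosen after seeing the data, they were 13 (from 5) for topotecan, 9 (from 2) for OL9-119, 16 (from 8) for the combination, 9 (from 3) for combination minus topotecan, 15 (from 6) for combination minus OL9-119, 1 (from 0) for DMSO minus untreated, 21, 17 and 12 (from 12, 11 and 6) for C6 minus F7, C6 minus G6 and F7 minus G6 in DMSO, and 21 (from 10) for C6 minus F7 untreated. Without clones C6, F7 and G6 in turn they were 3, 3 and 2 for topotecan, 5 each time for the combination, and 0, 0 and 1 for combination minus topotecan; OL9-119 gave 1 without C6 and 1 without F7. Leaving out each replicate number gave 2 to 6 for topotecan, 1 to 3 for OL9-119, 5 to 8 for the combination, 0 to 2 for combination minus topotecan, 3 to 5 for combination minus OL9-119, 2 to 10 for F7 minus G6 in DMSO and 6 to 11 for that pair untreated. Without low-detection libraries, combination minus topotecan gave 0, F7 minus G6 in DMSO 11 and C6 minus F7 untreated 19. Without the filter the combination gave 4. The direction of INSIG1 in C6 minus F7 in DMSO reversed without low-detection libraries (-0.037). The number called among all genes moved as well. For topotecan it was 2907 in the main fit, 2498, 1910 and 1556 without C6, F7 and G6, and 4438 with the slope covariate. Leaving out each replicate number gave 1864 to 2839 there. For F7 minus G6 in DMSO it was 3232, then 4709 without low-detection libraries and 1494 to 4273 with each replicate number left out. For combination minus topotecan it was 1274, and 678, 271 and 1037 without C6, F7 and G6. For C6 minus F7 untreated it was 6196, then 8353 with the slope covariate and 8722 without low-detection libraries. The causes were not tested.

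The replicate block gave 5 (from 2) for OL9-119 and 6 (from 3) for combination minus topotecan. Over all genes the number called rose as well, from 1788 to 2580 and from 1274 to 2409. The labels do not say that a number pairs libraries, though each number within a clone has the same library prefix in all treatments. Of 120 same-numbered pairs 56 had deviations correlated above 0.1 (median 0.0777, against -0.0231 for other numbers), and 32 of 60 libraries correlated best with their own number, a hint from the data and not the design. Under all 13 alternatives, ACACA kept its call with topotecan (-0.47 to -0.35) and the combination, ACAT2 with OL9-119, and STARD4 (0.35 to 0.52) and ELOVL6 (-0.54 to -0.39) with the combination. In simulated counts for topotecan minus DMSO, 52% of 1.5-fold changes were recovered.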
